A study of Homo sapiens with 24 samples.

Results

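The 45 genes described here encode the proteins that license replication origins, unwind and copy DNA and supply nucleotides in S phase, together with the E2F-linked regulators CCNE1, CCNE2, E2F1 and MYBL2. They were chosen by gene symbol, as the probes annotated to 45 named genes of the 20046 genes on the array (67 of 47323 probes). They were measured in Ramos, a cell line from a human Burkitt lymphoma (a cancer of B cells from the germinal centre), and in 5 doxorubicin-resistant lines derived from it. Dox100, Dox250, Dox500, Dox750 and Dox1000 were grown in 100, 250, 500, 750 and 1000 nM doxorubicin, an anthracycline that poisons topoisomerase II. Dox100 was derived from Ramos and each later line from the line before it, so the lines form 1 lineage, and no second lineage was measured. For the resistant lines the drug was in the medium of the measured cultures and for Ramos none is recorded, so the drug's presence and the heritable state of a line cannot be told apart. Each line was measured on 4 Illumina bead arrays, from 4 technical replicate cultures split from 1 culture. The p-values therefore measure only the spread between split cultures.

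DNA replication is prepared in G1, when the origin recognition complex, CDC6 and CDT1 load the ring-shaped MCM2 to MCM7 helicase onto origins, a step called licensing. In S phase CDC7 and cyclin-dependent kinases fire origins by joining CDC45 and the GINS complex to the MCM ring, and the polymerases alpha, delta and epsilon, the clamp PCNA and its loader RFC then copy the strands. Transcription of most of these genes is known to peak around the G1/S boundary under E2F factors, which the retinoblastoma protein restrains until cyclin E and its kinase inactivate it. Burkitt lymphoma cells are known for rapid division, and the replication machinery is abundant in them.

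Of the 45 genes 42 were read, from a probe detected on at least 3 of 4 arrays of at least 1 line (detection p under 0.01). GINS1 was detected on 3 of 24 arrays, PRIM2 on 2 and CCNE2 on 0, and these 3 genes have no value below. The probe read was detected on all 24 arrays for each of the 42 genes except CDC6, which was detected on 2 of 4 Dox750 arrays. Array medians ran from 121.1 to 163.4 intensity units, 14158 to 15564 probes were detected per array, and arrays of 1 line correlated at r between 0.993 and 0.996. The median within-line SD was 0.107 on the log2 scale for the 42 genes and 0.135 for all 9533 genes read, and the number of arrays limits the precision. The labelled cell type was borne out by 5 of the 7 B cell markers on the array (CD79A, CD79B, MS4A1, CD22 and CD37) and 3 of 3 germinal centre markers (BCL6, MME and CD38), detected on all 4 arrays of every line. Of the remaining B cell markers, PAX5 did not reach the detection rule in any line, and BLNK was detected on all 4 arrays of no line. None of the 7 T and NK cell, 5 myeloid and 5 epithelial and stromal markers was detected on all 4 Ramos arrays. In Dox1000 4 of these 17 were (NKG7, PRF1, CST3 and DCN), while CD3D, CD2, CD14, LYZ, CSF1R, EPCAM, KRT8 and COL1A1 did not reach the detection rule in any line. The summed normalised intensity ran from 371 to 412 in Dox1000 and from 237 to 263 in Ramos for the T and NK cell markers, from 341 to 376 and from 184 to 212 for the myeloid markers, and from 426 to 484 and from 281 to 305 for the epithelial and stromal markers, in the same order. The part of these markers in the results below was not tested.

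Promoter sequences in RefSeq (GRCh38.p14, 250 bases before to 50 after the gene start) were matched for 38 of the 45 genes by symbol. At least 1 of the E2F-type letter runs TTTCGCGC, TTTGGCGC, TTTCCCGC and TTTGCCGC, on either strand, stood in 18 of the 38 (47.4%), against 1164 of all 35116 promoters in the table (3.31%). For these shares a promoter with several matches was counted once, and a match of letters is not a measured binding site. The promoters of 5 genes are shown because their genes share a role in replication but differ in the direction or size of their change, with the E2F-type letters in capitals. MCM2 (chr3:127598161-127598460, plus strand) and MCM7 (chr7:100101348-100101647, minus strand) fell in Dox1000, MCM6 (chr2:135876394-135876693, minus strand) did not pass there, GINS3 (chr16:58392221-58392520, plus strand) was the highest of the 42 genes and POLD1 (chr19:50384073-50384372, plus strand) the lowest.
MCM2: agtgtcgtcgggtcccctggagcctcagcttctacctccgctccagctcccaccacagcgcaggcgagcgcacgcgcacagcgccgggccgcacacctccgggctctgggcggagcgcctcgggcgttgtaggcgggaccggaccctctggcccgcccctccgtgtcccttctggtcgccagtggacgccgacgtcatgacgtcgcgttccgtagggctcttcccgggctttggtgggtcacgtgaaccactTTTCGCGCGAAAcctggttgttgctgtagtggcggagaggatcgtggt
MCM6: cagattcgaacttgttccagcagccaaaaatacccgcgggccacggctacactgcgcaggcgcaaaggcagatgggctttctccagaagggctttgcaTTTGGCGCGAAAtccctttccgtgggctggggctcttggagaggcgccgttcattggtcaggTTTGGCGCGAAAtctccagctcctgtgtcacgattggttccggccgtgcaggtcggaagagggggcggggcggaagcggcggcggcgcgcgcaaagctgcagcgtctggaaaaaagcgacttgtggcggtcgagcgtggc
MCM7: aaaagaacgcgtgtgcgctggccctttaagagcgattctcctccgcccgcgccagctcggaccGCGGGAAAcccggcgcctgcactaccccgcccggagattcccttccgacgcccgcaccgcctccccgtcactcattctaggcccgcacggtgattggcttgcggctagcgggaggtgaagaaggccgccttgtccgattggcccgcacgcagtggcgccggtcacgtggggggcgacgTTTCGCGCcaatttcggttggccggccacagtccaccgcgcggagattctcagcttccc
GINS3: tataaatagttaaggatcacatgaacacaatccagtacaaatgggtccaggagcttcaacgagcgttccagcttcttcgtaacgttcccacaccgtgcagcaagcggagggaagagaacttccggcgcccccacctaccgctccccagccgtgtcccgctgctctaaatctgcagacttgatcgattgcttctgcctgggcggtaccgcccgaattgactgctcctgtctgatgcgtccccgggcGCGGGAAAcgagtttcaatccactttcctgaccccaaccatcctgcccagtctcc
POLD1: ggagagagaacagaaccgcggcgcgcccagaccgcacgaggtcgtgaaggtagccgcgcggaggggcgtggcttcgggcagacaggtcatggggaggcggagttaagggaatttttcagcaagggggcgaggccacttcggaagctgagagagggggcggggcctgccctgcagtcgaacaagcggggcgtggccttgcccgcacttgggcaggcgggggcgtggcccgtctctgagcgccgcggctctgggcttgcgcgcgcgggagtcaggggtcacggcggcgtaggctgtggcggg
MCM6 held 4 matches, MCM2 and MCM7 held 2 each, GINS3 held 1 and POLD1 held 0. Matches on opposite strands overlapped in MCM2 and MCM6, so the capitals form 1 run in MCM2 and 2 runs in MCM6. The 2 matches of MCM7 stood apart. CCAAT stood in 21 of the 38 promoters (55.3%, against 34.6% of all promoters), and TTTGAA in 1 (2.63%, against 15.2%). Genes with and without these letters both rose and fell. In Dox1000 against Ramos 3 of the 17 read genes with a match rose and 7 fell (median log2 difference -0.18), and 3 of the 19 without a match rose and 10 fell (median -0.23). The read genes MCM4, MCM5, GINS4, POLD3, RPA2 and RPA3 had no promoter in the table and are left out of this split. Of these, MCM4, MCM5, GINS4 and POLD3 fell in Dox1000, and RPA2 and RPA3 did not pass. Over all genes read 27.6% rose and 29.7% fell in that line.

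Of the 42 genes more fell than rose in each resistant line, by small amounts, and the number lower was highest in Dox1000. In whole cultures fewer cells in S phase and less RNA per cell cannot be told apart. Differences are on the log2 scale of normalised intensity, line minus Ramos, with the SE of limma over 4 arrays per line, and 1 unit is a 2-fold change. A gene passed at a Benjamini-Hochberg adjusted p under 0.05 over all kept probes. Against Ramos 14 of 42 fell in Dox100, 12 in Dox250, 17 in Dox500, 19 in Dox750 and 21 in Dox1000, where the background over all 9533 genes was 22.2%, 25.5%, 23.2%, 25.9% and 29.7% lower. Those that rose numbered 7, 7, 6, 6 and 6 in the same order of lines, and the background was 24.1%, 23.9%, 25.2%, 26.8% and 27.6% higher. The median difference of the 42 genes was -0.09, -0.10, -0.14, -0.18 and -0.25, against 0.00, -0.01, 0.01, 0.00 and -0.02 for all genes. These 5 comparisons share the Ramos arrays. Without Dox100 replicate 2 the number lower in Dox100 was 9, and without Dox250 replicate 1 the number higher in Dox250 was 4. Scaling arrays to a common median in place of quantile normalization shifted the median of all genes by -0.12, -0.15, -0.11 and -0.11 in Dox250, Dox500, Dox750 and Dox1000. With that scaling 6 rose and 9 fell in Dox100, 4 and 19 in Dox250, 3 and 23 in Dox500, 5 and 23 in Dox750 and 2 and 30 in Dox1000. The background under the same scaling was 21.7%, 16.8%, 15.5%, 19% and 19.9% higher and 22.6%, 34.4%, 35.5%, 33.6% and 37.5% lower in the same order of lines. In Dox100 the share of the 42 genes that fell (21.4%) was then below that of all genes.

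**Figure D1:**
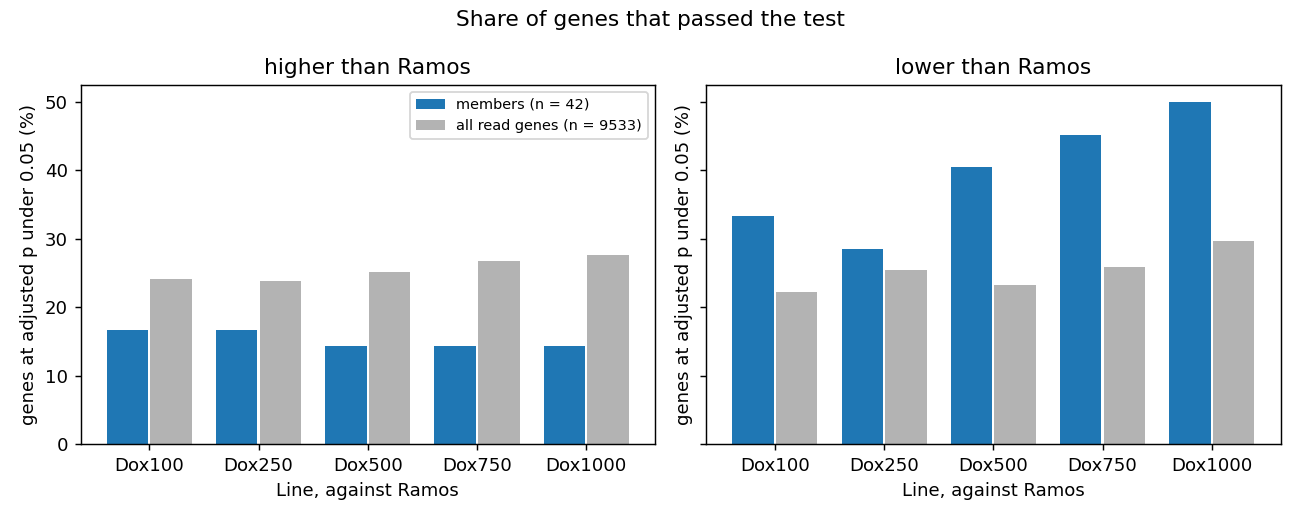
Share of genes (percent, from 0) higher than Ramos (left panel) or lower (right panel) at adjusted p under 0.05, for the 42 replication and E2F genes and all 9533 genes read, by resistant line. With quantile normalization, as plotted, the lower share of the 42 genes stands above that of all genes in each line and is largest in Dox1000, where 21 of 42 fell, while with median scaling it was below it in Dox100 (21.4% against 22.6%).

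Gene by gene, 7 of the 42 fell in all 5 resistant lines (MCM3, MCM5, MCM7, GINS4, POLD1, RFC1 and LIG1), against a background of 11.5% of all genes. The genes that rose in all 5 were GINS3, POLE, RFC5 and RRM2, 4 of 42, against a background of 13.8%. Without Ramos replicate 1 or Dox100 replicate 2 the number that fell in all 5 was 4 (9.52%, against backgrounds of 11.1% and 11.2%), and without Dox100 replicate 2 these were GINS4, POLD1, RFC1 and LIG1. Without Ramos replicate 2 or 4, Dox100 replicate 4, Dox250 replicate 4 or Dox1000 replicate 3 the number that rose in all 5 was 2 (4.76%, against backgrounds of 12.7% to 13.4%). With median scaling 7 fell in all 5 (MCM3, GINS4, POLD1, POLD3, RFC1, RPA1 and LIG1) and 1 rose (GINS3), against backgrounds of 15.1% and 9.67%. MCM5 and MCM7 were then not among those that fell in all 5. These alternatives were added after seeing the data, and no share was tested against its background. Some calls were lost when single arrays were left out, and these arrays are named below with the genes. With each array left out in turn, 19 of the 21 lower calls in Dox1000 and 3 of the 6 higher ones (GINS3, PRIM1 and RFC5) passed in every fit.

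**Figure D2:**
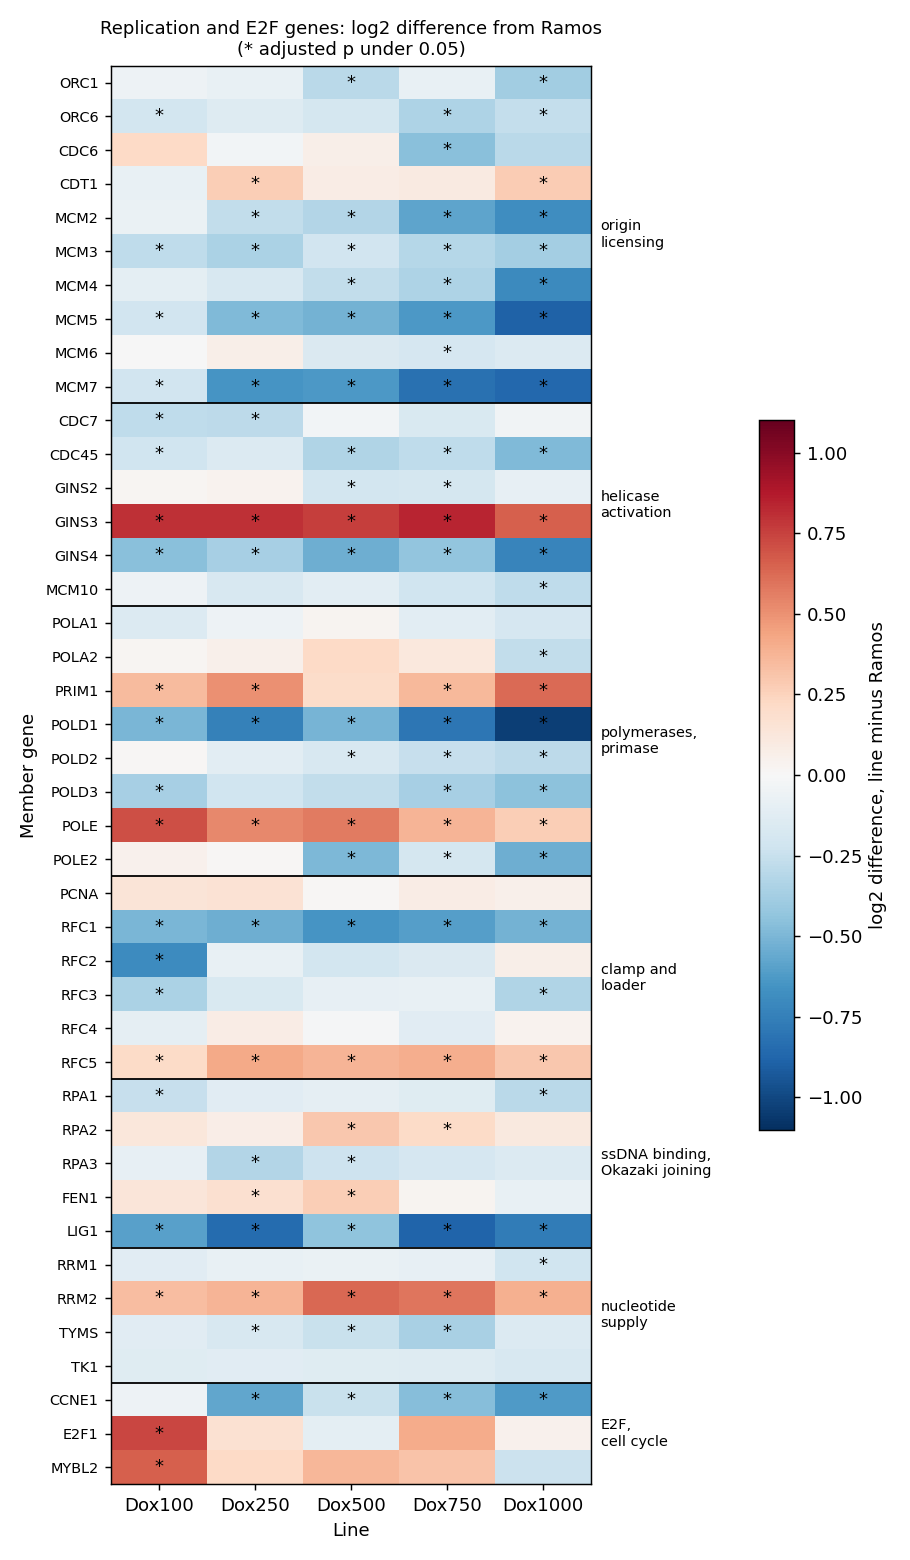
Log2 difference from Ramos (colour, line minus Ramos) of the 42 genes read (rows, by role) in the 5 resistant lines (columns, by dose), with an asterisk at adjusted p under 0.05. GINS3 is the darkest red row, between 0.66 and 0.84, and POLD1 in Dox1000 the darkest blue cell at -1.04.

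Among the 10 licensing genes, 1 rose and 7 fell in Dox1000 (median difference -0.38), and 0 rose and 4 fell in Dox100 (median -0.09). Over all genes 27.6% rose and 29.7% fell in Dox1000, and 24.1% and 22.2% in Dox100. No role group here or below was tested against its background. With median scaling 0 of the 10 rose and 9 fell in Dox1000, and the background under that scaling is given above. The MCM ring subunits made up most of the falls.
MCM5, a subunit of the ring, had log2 intensities of 11.58, 11.47, 11.53 and 11.48 on the Ramos arrays, 11.31, 11.20, 11.37 and 11.32 in Dox100, 11.10, 11.08, 10.91 and 11.03 in Dox250, 10.94, 11.09, 11.04 and 10.90 in Dox500, 10.69, 10.94, 10.93 and 10.98 in Dox750 and 10.60, 10.53, 10.73 and 10.65 in Dox1000. Every resistant array lay below all 4 Ramos arrays, and the 4 Dox1000 arrays were below those of every line but Dox750, where replicate 1 fell among them. MCM5 differed from Ramos by -0.21 ± 0.07 in Dox100, a call lost without Ramos replicate 1 or Dox100 replicate 2 (-0.19 to -0.18, adjusted p = 0.0564 to 0.0725), and by -0.89 ± 0.07, adjusted p = 8.37e-10 in Dox1000.
MCM7, its partner in the ring, had 13.95, 13.74, 13.93 and 14.05 in Ramos, 13.60, 13.63, 13.84 and 13.77 in Dox100, 13.23, 13.26, 13.27 and 13.32 in Dox250, 13.38, 13.39, 13.18 and 13.20 in Dox500, 13.01, 13.13, 13.10 and 13.16 in Dox750 and 12.95, 13.08, 13.25 and 12.94 in Dox1000. The Dox100 arrays overlapped those of Ramos and from Dox250 on no array did. Its difference was -0.21, -0.65, -0.63, -0.82 and -0.86 in order of dose (SE 0.08), and its other kept probe had the same sign in each line. That probe did not pass in Dox100 or Dox250 (-0.76 and -0.50, adjusted p = 0.0708 and 0.235) and passed in the later lines. The Dox100 call of MCM7 was lost without Ramos replicate 1, 3 or 4 or Dox100 replicate 1 or 2 (-0.20 to -0.16, adjusted p = 0.0851 to 0.152).

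MCM2 and MCM4 fell later along the series. MCM2 had 9.97, 9.97, 10.24 and 9.78 in Dox1000, against 10.66, 10.72, 10.64 and 10.67 in Ramos, with no overlap. It did not pass in Dox100 (-0.07, adjusted p = 0.574) and differed by -0.27, -0.32, -0.58 and -0.68 in the later lines (SE 0.09). Its Dox250 call was lost without Dox250 replicate 3 (-0.20, adjusted p = 0.0874).
MCM4 had 11.00, 11.15, 11.30 and 10.95 in Dox1000, against 11.67, 11.85, 11.81 and 11.88 in Ramos, again with no overlap. Its difference was -0.11 and -0.18 in Dox100 and Dox250, where it did not pass, and -0.27, -0.34 and -0.70 in the lines after them (SE 0.08). The other kept MCM4 probe passed in Dox250 (-0.28, adjusted p = 0.0173) and did not fall from Dox250 to Dox500 (0.02). By the probes read, the line means of MCM2, MCM4 and MCM5 were lower at each of the 5 steps from Ramos to Dox1000. This held for 0.703% of all genes and was noticed in the values, so it is given with no test.
By the probe read, MCM3 fell in each line by a similar amount, between 0.21 and 0.37, with means of 13.12 ± 0.09 in Dox1000 and 13.49 ± 0.08 in Ramos (SD, n = 4). Its Dox100 call was lost without Dox100 replicate 2 (-0.20, adjusted p = 0.0502), and its Dox500 call was lost without Ramos replicate 1, 2 or 4 or Dox500 replicate 1, 2 or 3 (-0.22 to -0.16, adjusted p = 0.0622 to 0.143). The other kept MCM3 probe did not pass in Dox100 (-0.17, adjusted p = 0.116) and differed by -0.51 in Dox1000. That probe was also lower in Dox1000 than in Dox100 (-0.33, adjusted p = 0.0051). MCM6 had 12.37, 12.27, 12.58 and 12.41 in Dox1000, against 12.61, 12.52, 12.60 and 12.52 in Ramos, and the arrays overlapped. MCM6 passed in Dox750 (-0.19 ± 0.07, adjusted p = 0.0414) and in no other line, at -0.15 in Dox1000 (adjusted p = 0.0827), and the Dox750 call was lost without Ramos replicate 1, 3 or 4 or Dox750 replicate 1, 2 or 3 (-0.20 to -0.16, adjusted p = 0.0501 to 0.117).

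**Figure D3:**
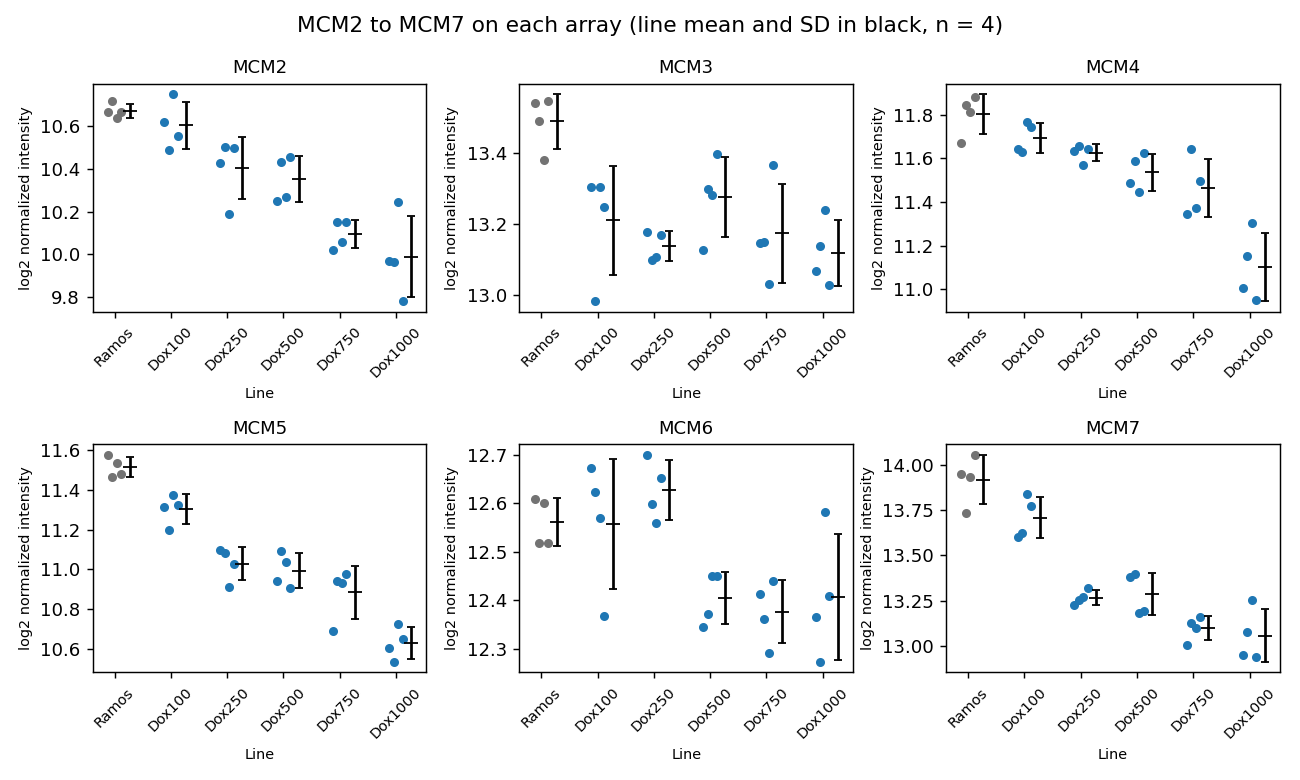
Log2 normalised intensity of MCM2 to MCM7 on each array (points, 4 per line), with the line mean and SD in black, by line in order of dose. Each panel has its own vertical axis that does not start at 0. The Dox1000 points of MCM2, MCM4, MCM5 and MCM7 lie below all Ramos points, while those of MCM6 overlap them.

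Pairs of ring subunits were set against each other within arrays. The pairs were picked after their values were seen, so their values are a description with no test. The difference between the log2 values of MCM5 and MCM6 averaged -1.78 ± 0.05 in Dox1000 and -1.05 ± 0.02 in Ramos (SD, n = 4 each), a change of -0.73. MCM7 changed by -0.71 relative to MCM6, MCM4 by -0.55 and MCM2 by -0.53. MCM3 changed by -0.22 relative to MCM6.

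Outside the ring, ORC1 and ORC6, subunits of the origin recognition complex, fell in Dox1000 (-0.38 ± 0.11, adjusted p = 0.00561 for ORC1 and -0.26 ± 0.08, adjusted p = 0.00998 for ORC6). ORC1 also passed in Dox500 (-0.30), and ORC6 in Dox100 (-0.21) and Dox750 (-0.34). The Dox500 call of ORC1 was lost without Ramos replicate 2 or 4 or Dox500 replicate 1 or 4 (-0.28 to -0.25, adjusted p = 0.0704 to 0.101). The Dox100 call of ORC6 was lost without Ramos replicate 1, 2 or 4 or Dox100 replicate 2, 3 or 4 (-0.22 to -0.16, adjusted p = 0.0587 to 0.158). The other ORC6 probe was lower by 0.67 to 0.89 in all 5 lines, each past the threshold.
CDT1, an MCM loader, had 10.05, 10.11, 10.14 and 9.93 in Dox1000, against 10.08, 9.60, 9.58 and 9.85 in Ramos, and the arrays overlapped. CDT1 rose in Dox250 (0.27 ± 0.10, adjusted p = 0.0324) and Dox1000 (0.28 ± 0.10, adjusted p = 0.0238). The Dox250 call was lost without Ramos replicate 2 or 3 or Dox250 replicate 1 or 3 (0.20 to 0.25, adjusted p = 0.0777 to 0.125), and the Dox1000 call was lost without Ramos replicate 2 or 3 or Dox1000 replicate 2 or 3 (0.21 to 0.26, adjusted p = 0.0551 to 0.098). With median scaling neither passed (0.14 and 0.13). CDC6, the other loader, was dim and fell in Dox750 alone of the 5 lines (-0.46 ± 0.12, adjusted p = 0.00387), where 2 of 4 arrays detected it.

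In helicase activation 6 genes were read, of which 1 rose and 3 fell in Dox1000 (median -0.19) and likewise 1 and 3 in Dox100 (median -0.13). Over all genes 27.6% rose and 29.7% fell in Dox1000, and 24.1% and 22.2% in Dox100. The GINS subunits, which join CDC45 and the MCM ring in the active helicase, moved in opposite directions. GINS3 had 9.05, 8.80, 8.69 and 8.87 in Ramos, 9.53, 9.55, 9.74 and 9.83 in Dox100, 9.72, 9.70, 9.72 and 9.48 in Dox250, 9.65, 9.67, 9.63 and 9.50 in Dox500, 9.74, 9.68, 9.82 and 9.54 in Dox750 and 9.55, 9.53, 9.51 and 9.46 in Dox1000. All 20 resistant arrays lay above all 4 Ramos arrays. Its difference of 0.81 ± 0.09 was already present in Dox100 and stood at 0.80, 0.76, 0.84 and 0.66 afterwards (highest adjusted p = 1.26e-06).
GINS4 had 8.72, 9.00, 9.00 and 8.59 in Ramos, 8.06, 8.49, 8.44 and 8.48 in Dox100, 8.51, 8.54, 8.51 and 8.29 in Dox250, 8.20, 8.33, 8.26 and 8.38 in Dox500, 8.36, 8.38, 8.39 and 8.44 in Dox750 and 8.11, 7.99, 8.16 and 8.14 in Dox1000. No resistant array reached the Ramos range. Its difference was -0.46, -0.36, -0.53, -0.43 and -0.73 in order of dose (SE 0.10).
GINS2 fell by 0.20 in Dox500 and in Dox750 and did not pass in Dox1000 (-0.09, adjusted p = 0.255), and its Dox750 call was lost without Dox750 replicate 1 or 4 (-0.18 to -0.17, adjusted p = 0.0503 to 0.0544). Relative to GINS4, GINS3 changed by 1.39 between Dox1000 and Ramos, and relative to GINS2 by 0.75, in pairs picked after their values were seen and given with no test.
CDC45 fell in Dox100 (-0.21), Dox500 (-0.33), Dox750 (-0.28) and Dox1000 (-0.49 ± 0.07, adjusted p = 3.42e-06), with the Dox100 call lost without Ramos replicate 1 (-0.16, adjusted p = 0.0644). The kinase gene CDC7 fell in Dox100 and Dox250 only among the 5 lines (-0.28 and -0.29), with arrays that overlapped Ramos. The first of these calls was lost without Ramos replicate 4 or Dox100 replicate 1 (-0.25 to -0.23, adjusted p = 0.0573 to 0.0679), and the second was lost without Ramos replicate 4 or Dox250 replicate 3 (-0.24 to -0.23, adjusted p = 0.0576 to 0.0602). MCM10, which helps to start the loaded helicase, passed in Dox1000 (-0.28 ± 0.11, adjusted p = 0.032), a call lost without Ramos replicate 1, 2 or 3 or Dox1000 replicate 1, 2 or 3 (-0.28 to -0.25, adjusted p = 0.0512 to 0.0805). The other kept MCM10 probe also passed in Dox1000 (-0.54, adjusted p = 0.0003585) and in no other line against Ramos. It was lower in Dox1000 than in Dox100 (-0.55, adjusted p = 0.0006909), where the probe read did not pass (-0.23).

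Of the 8 polymerase and primase genes read, 2 rose and 5 fell in Dox1000 (median -0.28), and 2 rose and 2 fell in Dox100 (median 0.02). Over all genes 27.6% rose and 29.7% fell in Dox1000, and 24.1% and 22.2% in Dox100. With median scaling 1 of the 8 rose and 6 fell in Dox1000. The catalytic subunits of the leading-strand and lagging-strand enzymes parted. POLD1, the catalytic subunit of polymerase delta, had 10.30, 10.29, 10.23 and 10.49 in Ramos, 9.94, 9.59, 9.96 and 9.80 in Dox100, 9.75, 9.55, 9.41 and 9.64 in Dox250, 9.84, 9.79, 9.73 and 9.89 in Dox500, 9.62, 9.56, 9.33 and 9.63 in Dox750 and 9.29, 9.43, 9.35 and 9.09 in Dox1000. Each resistant array was below every Ramos array. Its differences of -0.50, -0.74, -0.51, -0.79 and -1.04 ± 0.10 include the lowest of the 42 genes, in Dox1000 (adjusted p = 6.41e-09).
POLE, the catalytic subunit of polymerase epsilon, had 9.81, 9.91, 9.99 and 9.65 in Ramos, 10.75, 10.35, 10.60 and 10.51 in Dox100, 10.50, 10.30, 10.28 and 10.41 in Dox250, 10.42, 10.59, 10.35 and 10.28 in Dox500, 10.19, 10.19, 10.24 and 10.23 in Dox750 and 10.18, 10.07, 10.23 and 9.97 in Dox1000. The arrays lay above those of Ramos up to Dox750 and overlapped them in Dox1000. Its difference was 0.71 ± 0.09 in Dox100 and then 0.53, 0.57, 0.37 and 0.27, and the last call was lost without Ramos replicate 4 or Dox1000 replicate 3 (0.21 to 0.23, adjusted p = 0.0536 to 0.0719) and did not pass with median scaling (0.13, adjusted p = 0.203).
The log2 difference between POLE and POLD1 averaged 0.82 ± 0.12 in Dox1000 and -0.49 ± 0.25 in Ramos (SD, n = 4 each), a change of 1.31. This pair too was picked after its values were seen and is given with no test.

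**Figure D4:**
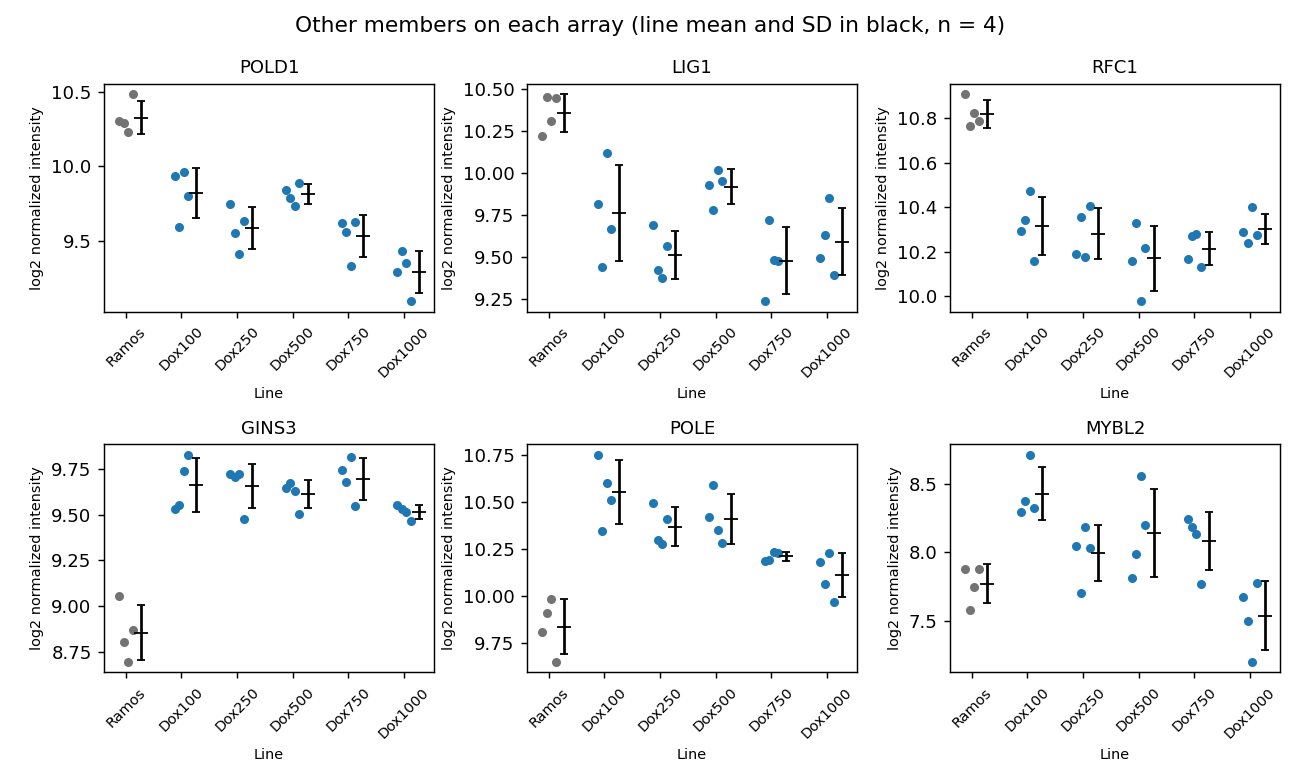
Log2 normalised intensity of POLD1, LIG1, RFC1, GINS3, POLE and MYBL2 on each array (points, 4 per line), with line mean and SD in black. Each panel has its own vertical axis that does not start at 0. GINS3 stands above Ramos and POLD1, LIG1 and RFC1 below it in all 5 resistant lines, while MYBL2 stands clear of Ramos in Dox100 alone.

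The accessory subunits of delta fell with POLD1 in the last line. POLD2 differed by -0.29 ± 0.06 in Dox1000 (adjusted p = 0.000395), and also passed in Dox500 and Dox750 (-0.18 and -0.25). Its Dox500 call was lost without Ramos replicate 1 or Dox500 replicate 4 (-0.15, adjusted p = 0.0674 to 0.0741), and with the mean over probes (-0.10, adjusted p = 0.334). The other kept POLD2 probe passed in Dox1000 (-0.31, adjusted p = 0.0386). It did not pass in Dox500 or Dox750 (-0.02 and -0.15, adjusted p = 0.93 and 0.357). POLD3 had 8.12, 7.99, 8.08 and 8.34 in Dox100, against 8.45, 8.54, 8.56 and 8.44 in Ramos, with no overlap (-0.36 ± 0.13, adjusted p = 0.0283). That call was lost without Ramos replicate 2 or 3 or Dox100 replicate 1, 2 or 3 (-0.36 to -0.32, adjusted p = 0.0534 to 0.0793). POLD3 passed again in Dox750 (-0.36) and Dox1000 (-0.45), with the Dox750 call lost without Ramos replicate 2 or 3 or Dox750 replicate 1 or 2 (-0.35 to -0.33, adjusted p = 0.0534 to 0.0674).
POLE2, the second subunit of epsilon, went the other way from POLE. It had 9.17, 9.09, 9.18 and 9.26 in Dox1000, against 9.72, 9.68, 9.65 and 9.78 in Ramos, with no overlap (-0.54 ± 0.08, adjusted p = 5.67e-06). It did not pass in Dox100 or Dox250 (0.05 and 0.01) and fell in Dox500 (-0.49) and Dox750 (-0.19), with the Dox750 call lost without Ramos replicate 1, 2 or 4 or Dox750 replicate 1, 2 or 3 (-0.21 to -0.15, adjusted p = 0.0518 to 0.146).
PRIM1, the catalytic primase subunit that makes the RNA primers, had 10.74, 10.40, 10.56 and 10.55 in Dox1000, against 9.89, 9.99, 9.94 and 9.94 in Ramos, with no overlap. It rose in Dox100 (0.35), Dox250 (0.51), Dox750 (0.35) and Dox1000 (0.63 ± 0.09, adjusted p = 2.36e-06), and did not pass in Dox500 (0.21, adjusted p = 0.057), where its other probe differed in sign (-0.03). The other probe passed in Dox250 and Dox1000 (0.28 and 0.52). It did not pass in Dox100 or Dox750 (0.14 and 0.11, adjusted p = 0.247 and 0.392).
POLA2, a polymerase alpha subunit, fell in Dox1000 (-0.27 ± 0.10, adjusted p = 0.0281), a call lost without Ramos replicate 1 or 4 or Dox1000 replicate 2 or 3 (-0.26 to -0.17, adjusted p = 0.0572 to 0.144). POLA1, the catalytic subunit, passed in no line, with differences between -0.18 and 0.03.

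The clamp and its loader gave 6 genes, of which 1 rose and 2 fell in Dox1000 (median 0.04) and 1 rose and 3 fell in Dox100 (median -0.22). Over all genes 27.6% rose and 29.7% fell in Dox1000, and 24.1% and 22.2% in Dox100. With median scaling 0 of the 6 rose and 2 fell in Dox1000, and their median was -0.10. PCNA, the sliding clamp, passed in no line, with means of 12.62 ± 0.18 in Dox1000 and 12.57 ± 0.12 in Ramos (SD, n = 4), although its other kept probe was higher by 0.62 in Dox250, past the threshold.
RFC1, the large loader subunit, had 10.91, 10.77, 10.82 and 10.78 in Ramos, 10.29, 10.34, 10.47 and 10.16 in Dox100, 10.19, 10.36, 10.17 and 10.40 in Dox250, 10.16, 10.33, 9.98 and 10.22 in Dox500, 10.17, 10.27, 10.28 and 10.13 in Dox750 and 10.29, 10.24, 10.40 and 10.27 in Dox1000. The resistant arrays all lay below those of Ramos and overlapped each other. Its difference was -0.50 ± 0.08 in Dox100 and stayed between -0.65 and -0.50 in the 5 lines (highest adjusted p = 2.53e-05).
RFC5, a small subunit, had 11.05, 10.97, 10.89 and 10.97 in Dox1000, against 10.76, 10.66, 10.51 and 10.77 in Ramos, with no overlap. Its difference was 0.21, 0.41, 0.37, 0.40 and 0.29 (SE 0.08), and with median scaling it did not pass in Dox500 or Dox1000 (0.24 and 0.17, adjusted p = 0.0664 and 0.191). Its Dox100 call was lost without Ramos replicate 2 or 3 or Dox100 replicate 2, 3 or 4 (0.15 to 0.23, adjusted p = 0.0552 to 0.173).
RFC2 fell in Dox100 (-0.69 ± 0.19, adjusted p = 0.00468), with arrays that overlapped Ramos and another probe at -0.18 that did not pass. RFC3 fell in Dox100 and Dox1000 (-0.34 and -0.33), with 1 of its 2 other probes differing in sign in Dox1000 (0.27), and RFC4 passed in no line, with differences between -0.13 and 0.08. With the mean over probes the Dox1000 value of RFC3 did not pass (-0.15, adjusted p = 0.102).

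Of the 5 genes that bind single-stranded DNA or finish Okazaki fragments, 0 rose and 2 fell in Dox1000 (median -0.15), and 0 and 2 in Dox100 (median -0.09). Over all genes 27.6% rose and 29.7% fell in Dox1000, and 24.1% and 22.2% in Dox100. LIG1, the ligase that seals Okazaki fragments, had 10.22, 10.45, 10.31 and 10.45 in Ramos, 9.81, 9.44, 10.12 and 9.67 in Dox100, 9.69, 9.42, 9.37 and 9.56 in Dox250, 9.93, 9.78, 10.02 and 9.95 in Dox500, 9.23, 9.72, 9.48 and 9.48 in Dox750 and 9.49, 9.63, 9.85 and 9.39 in Dox1000. No resistant array reached the lowest Ramos array, and Dox100 replicate 3 came nearest. Its difference was -0.60, -0.85, -0.44, -0.88 and -0.77 in order of dose (SE 0.13, adjusted p = 2.41e-05 in Dox1000).
FEN1, the nuclease that trims fragment ends, depended on the probe. The brighter probe rose in Dox250 and Dox500 (0.18 and 0.27) and did not pass in Dox1000 (-0.08), while the other probe was lower by 0.34 in Dox100 and 0.54 in Dox1000, both past the threshold. In Dox500 the other probe differed by -0.27 (adjusted p = 0.108), opposite in sign, and the call was lost with the mean over probes (0.0004, adjusted p = 0.997) and with median scaling (0.09, adjusted p = 0.403). The Dox250 call was lost with the same 2 alternatives (0.07, adjusted p = 0.464 and 0.02, adjusted p = 0.84), and also lost without Ramos replicate 2, 3 or 4 or Dox250 replicate 1, 2, 3 or 4 (0.14 to 0.19, adjusted p = 0.0529 to 0.15).
The single-strand binding subunits parted as well. RPA1 fell in Dox100 and Dox1000 (-0.26 and -0.30) and RPA3 in Dox250 and Dox500 (-0.32 and -0.23), with the Dox500 call of RPA3 lost without Ramos replicate 2 or 3 or Dox500 replicate 1 or 2 (-0.23 to -0.17, adjusted p = 0.0501 to 0.12). Neither other kept RPA1 probe passed in Dox100 (-0.16 and -0.18, adjusted p = 0.1072 and 0.1531). Nor did either pass in Dox1000 (-0.17 and -0.21, adjusted p = 0.07045 and 0.08234). RPA2 rose in Dox500 and Dox750 (0.30 and 0.21), having 11.75, 11.59, 11.47 and 11.54 in Dox500, against 11.35, 11.23, 11.32 and 11.27 in Ramos. Both calls of RPA2 were lost with median scaling (0.19 and 0.15, adjusted p = 0.0626 and 0.142).

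Nucleotide supply gave 4 genes, of which 1 rose and 1 fell in Dox1000 (median -0.16), and 0 rose and 3 fell with median scaling. With quantile normalization 27.6% of all genes rose and 29.7% fell in Dox1000. RRM2, the regulated subunit of ribonucleotide reductase, had 10.10, 9.90, 9.67 and 9.94 in Dox500 and 9.91, 9.97, 9.81 and 9.78 in Dox750, against 9.06, 9.25, 9.51 and 9.30 in Ramos, with no overlap in either line. It rose by 0.34, 0.37, 0.63, 0.59 and 0.39 (SE 0.13), and in Dox100, Dox250 and Dox1000 its arrays overlapped those of Ramos. The Dox100 call was lost without Ramos replicate 1, 2 or 4 or Dox100 replicate 1, 2 or 4 (0.25 to 0.35, adjusted p = 0.0546 to 0.135), the Dox250 call was lost without Ramos replicate 1 or Dox250 replicate 1 or 4 (0.30 to 0.33, adjusted p = 0.0588 to 0.0726), and the Dox1000 call was lost without Ramos replicate 1 (0.32, adjusted p = 0.0513). RRM1, the large subunit, fell in Dox1000 alone of the 5 lines (-0.22 ± 0.06, adjusted p = 0.00605).
TYMS, which makes thymidylate, fell in Dox250, Dox500 and Dox750 (-0.18, -0.24 and -0.36) and did not pass in Dox1000 (-0.15), and its Dox250 call was lost without Ramos replicate 1, 3 or 4 or Dox250 replicate 1, 3 or 4 (-0.18 to -0.14, adjusted p = 0.0605 to 0.126). TK1, the thymidine salvage kinase, passed in no line, with differences between -0.18 and -0.13.

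The E2F-linked regulators were higher in the first resistant line, except for cyclin E. E2F1, the transcription factor, had 7.44, 6.85, 7.06 and 7.12 in Ramos, 8.38, 7.33, 7.92 and 7.79 in Dox100, 7.45, 7.67, 7.10 and 6.92 in Dox250, 7.06, 6.97, 6.94 and 7.06 in Dox500, 7.61, 7.83, 7.13 and 7.53 in Dox750 and 7.12, 7.21, 7.03 and 7.29 in Dox1000. The Dox100 arrays reached higher than those of the other lines but overlapped Ramos through Dox100 replicate 2. E2F1 rose in Dox100 (0.74 ± 0.18, adjusted p = 0.00239) and passed in none of the later lines, at 0.17, -0.11, 0.41 and 0.05.
MYBL2, which encodes B-MYB and acts with the complex that drives genes of late S and G2, had 7.88, 7.58, 7.75 and 7.88 in Ramos, 8.30, 8.38, 8.71 and 8.33 in Dox100, 8.05, 7.70, 8.19 and 8.03 in Dox250, 7.81, 7.99, 8.56 and 8.20 in Dox500, 8.24, 8.18, 8.13 and 7.77 in Dox750 and 7.67, 7.50, 7.20 and 7.78 in Dox1000. In Dox100 all arrays lay above Ramos, and in each later line the arrays overlapped it. MYBL2 rose in Dox100 (0.66 ± 0.15, adjusted p = 0.00126) and did not pass at 0.22, 0.37, 0.31 and -0.23 in the later lines. Both E2F1 and MYBL2 lie on chromosome 20, whose other genes had a median difference of 0.47 in Dox100.
CCNE1, the cyclin E1 that activates CDK2, had 8.44, 8.34, 8.49 and 8.29 in Dox250 and 8.22, 8.53, 8.42 and 8.16 in Dox1000, against 9.15, 8.82, 8.80 and 9.06 in Ramos, with no overlap. It did not pass in Dox100 (-0.06) and fell in Dox250 (-0.57 ± 0.09), Dox500 (-0.24), Dox750 (-0.47) and Dox1000 (-0.63 ± 0.09, adjusted p = 4.05e-06), with the Dox500 call lost without Ramos replicate 1 or 4 or Dox500 replicate 1, 2 or 4 (-0.24 to -0.18, adjusted p = 0.0556 to 0.125).

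Across the resistant series, Dox1000 against Dox100, 4 of the 42 genes rose and 17 fell, against a background of 17.3% higher and 20.5% lower, and their median difference was -0.13 against -0.02 for all genes. With median scaling 1 rose and 22 fell, against a background of 11.2% higher and 27.4% lower under that scaling. Without Dox100 replicate 3 the number higher was 2.
MYBL2 showed the largest fall, with 7.67, 7.50, 7.20 and 7.78 in Dox1000, against 8.30, 8.38, 8.71 and 8.33 in Dox100 (-0.89 ± 0.15, adjusted p = 9.99e-05). E2F1 had 7.12, 7.21, 7.03 and 7.29 in Dox1000, against 8.38, 7.33, 7.92 and 7.79 in Dox100 (-0.69 ± 0.18, adjusted p = 0.00579), and MCM5 differed by -0.67 ± 0.07 (adjusted p = 2.65e-07). For these 3 genes the arrays of the 2 lines did not overlap.
Also lower were MCM7 (-0.65), MCM2 (-0.61), MCM4 (-0.59), POLE2 (-0.58), CCNE1 (-0.57), POLD1 (-0.53), CDC6 (-0.51) and POLE (-0.44). The other 6 (ORC1, CDC45, GINS4, POLA2, POLD2 and FEN1) fell by 0.21 to 0.32. Of these the call of ORC1 was lost without Dox100 replicate 3 or Dox1000 replicate 2 or 4 (-0.32 to -0.23, adjusted p = 0.0515 to 0.119), and that of GINS4 was lost without Dox100 replicate 2, 3 or 4 or Dox1000 replicate 1, 2 or 4 (-0.28 to -0.23, adjusted p = 0.0514 to 0.102). That of POLA2 was lost without Dox100 replicate 1 or 4 or Dox1000 replicate 2 or 3 (-0.27 to -0.23, adjusted p = 0.063 to 0.104), and that of FEN1 was lost without Dox100 replicate 1 or 3 or Dox1000 replicate 1 or 4 (-0.20 to -0.18, adjusted p = 0.0616 to 0.0829). RFC1 and LIG1, low in all 5 lines, did not differ past the threshold between the ends of the series (-0.02, adjusted p = 0.906 for RFC1 and -0.17, adjusted p = 0.324 for LIG1).
RFC2 rose, with 8.86, 8.41, 8.37 and 8.73 in Dox1000, against 7.61, 8.30, 7.35 and 8.08 in Dox100 (0.75 ± 0.19, adjusted p = 0.00339), and its other probe rose by 0.35. CDT1 had 10.05, 10.11, 10.14 and 9.93 in Dox1000, against 9.69, 9.55, 9.88 and 9.66 in Dox100 (0.36 ± 0.10, adjusted p = 0.008), and with median scaling did not pass (0.23, adjusted p = 0.0854). PRIM1 (0.28) and CDC7 (0.25) were higher with arrays that overlapped. The call of PRIM1 was lost without Dox100 replicate 3 or Dox1000 replicate 1 (0.19 to 0.22, adjusted p = 0.0717 to 0.0811), and that of CDC7 was lost without Dox100 replicate 1, 2 or 3 or Dox1000 replicate 3 or 4 (0.19 to 0.26, adjusted p = 0.0598 to 0.156).

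Between neighbouring lines few of the 42 genes changed. In Dox250 against Dox100 2 rose and 4 fell (background 5.21% higher and 8.25% lower), in Dox500 against Dox250 3 and 4 (7.86% and 6.81%), in Dox750 against Dox500 1 and 3 (3.98% and 4.02%), and in Dox1000 against Dox750 2 and 7 (12.1% and 11.7%). With median scaling the numbers were 0 and 9 in Dox250 against Dox100 (background 2.58% and 15.1% under that scaling), 2 and 3 in Dox500 against Dox250 (4.72% and 6.98%), 0 and 1 in Dox750 against Dox500 (3.99% and 1.88%) and 0 and 5 in Dox1000 against Dox750 (10.7% and 10.3%). These counts are small and changed when single arrays were left out. In Dox250 against Dox100 the number higher was 1 without Dox100 replicate 3 or 4 or Dox250 replicate 1 or 4 and 0 without Dox100 replicate 1 or Dox250 replicate 3, and the number lower was 2 without Dox100 replicate 3 or Dox250 replicate 3. In Dox500 against Dox250 the number higher was 1 without Dox250 replicate 3 or Dox500 replicate 1, 3 or 4 and 0 without Dox250 replicate 4. The number lower there was 2 without Dox250 replicate 1 or 4 or Dox500 replicate 1 or 2 and 1 without Dox250 replicate 3 or Dox500 replicate 3. In Dox750 against Dox500 the number higher was 0 without Dox500 replicate 2 or 3 or Dox750 replicate 1 or 4. The number lower there was 1 without Dox500 replicate 1 or 3 or Dox750 replicate 1, 3 or 4 and 0 without Dox500 replicate 4. In Dox1000 against Dox750 the number higher was 1 without Dox750 replicate 3 or 4 or Dox1000 replicate 3 or 4 and 0 without Dox750 replicate 1 or 2 or Dox1000 replicate 1, and the number lower was 4 without Dox750 replicate 4 or Dox1000 replicate 2.

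The 6 single-gene calls that held with each array left out were spread over 3 of the 4 steps. MCM7 fell in Dox250 against Dox100 (-0.44 ± 0.08, adjusted p = 0.00105), with 13.23, 13.26, 13.27 and 13.32 in Dox250, against 13.60, 13.63, 13.84 and 13.77 in Dox100, although the mean over its probes did not pass (-0.09, adjusted p = 0.778). Its other kept probe had the opposite sign at this step and did not pass (0.26, adjusted p = 0.669). CCNE1 fell at the same step (-0.51 ± 0.09, adjusted p = 0.000484), with 8.44, 8.34, 8.49 and 8.29 in Dox250, against 9.00, 8.81, 8.95 and 8.85 in Dox100. POLE2 fell in Dox500 against Dox250 (-0.51 ± 0.08, adjusted p = 0.000149), with 9.25, 9.13, 9.18 and 9.30 in Dox500, against 9.80, 9.64, 9.86 and 9.58 in Dox250.
The other 3 were falls in Dox1000 against Dox750. MCM4 had 11.00, 11.15, 11.30 and 10.95 in Dox1000, against 11.35, 11.64, 11.37 and 11.50 in Dox750 (-0.36 ± 0.08, adjusted p = 0.00262). POLA2 had 10.18, 10.09, 10.05 and 10.15 in Dox1000, against 10.48, 10.56, 10.56 and 10.40 in Dox750 (-0.38 ± 0.10, adjusted p = 0.0082), and POLE2 differed by -0.34 ± 0.08 (adjusted p = 0.0033). POLE2 thus changed at each of the last 3 steps, since it also rose in Dox750 against Dox500 (0.30 ± 0.08, adjusted p = 0.0223).

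The other calls at these steps, named here by gene, were each lost with some array left out. In Dox250 against Dox100 they were the falls of MCM5 (-0.27) and E2F1 (-0.57) and the rises of CDT1 (0.35) and RFC2 (0.61). MCM5 was lost without Dox100 replicate 3 or Dox250 replicate 3 (-0.25 to -0.23, adjusted p = 0.0562 to 0.0706), and E2F1 was lost without Dox100 replicate 1, 3 or 4 or Dox250 replicate 1, 3 or 4 (-0.62 to -0.39, adjusted p = 0.0537 to 0.192). CDT1 was lost without Dox100 replicate 1, 2 or 4 or Dox250 replicate 1 or 3 (0.30 to 0.35, adjusted p = 0.0502 to 0.0883), and RFC2 was lost without Dox100 replicate 1 or 3 or Dox250 replicate 3 or 4 (0.45 to 0.57, adjusted p = 0.0834 to 0.152).
In Dox500 against Dox250 LIG1 (0.41), CCNE1 (0.33) and RPA2 (0.22) rose, and PRIM1 (-0.30), GINS2 (-0.24) and MCM6 (-0.22) fell. LIG1 was lost without Dox250 replicate 2, 3 or 4 or Dox500 replicate 1, 3 or 4 (0.36 to 0.43, adjusted p = 0.0508 to 0.106). CCNE1 was lost without Dox250 replicate 4 or Dox500 replicate 3 (0.29, adjusted p = 0.0532 to 0.0674), and RPA2 was lost without Dox250 replicate 1, 2, 3 or 4 or Dox500 replicate 1, 2 or 4 (0.17 to 0.24, adjusted p = 0.0504 to 0.122). PRIM1 was lost without Dox250 replicate 1, 3 or 4 or Dox500 replicate 1 or 3 (-0.29 to -0.28, adjusted p = 0.0508 to 0.0661), and GINS2 was lost without Dox250 replicate 3 or Dox500 replicate 2 or 3 (-0.23 to -0.22, adjusted p = 0.053 to 0.0573). MCM6 was lost without Dox250 replicate 1, 2, 3 or 4 or Dox500 replicate 1, 2, 3 or 4 (-0.25 to -0.20, adjusted p = 0.061 to 0.115).
In Dox750 against Dox500 CDC6 (-0.52), LIG1 (-0.44) and FEN1 (-0.24) fell. CDC6 was lost without Dox500 replicate 4 (-0.45, adjusted p = 0.052), and LIG1 was lost without Dox500 replicate 1, 3 or 4 or Dox750 replicate 1, 3 or 4 (-0.44 to -0.36, adjusted p = 0.0623 to 0.126). FEN1 was lost without Dox500 replicate 1, 2, 3 or 4 or Dox750 replicate 1, 2, 3 or 4 (-0.25 to -0.22, adjusted p = 0.0612 to 0.121), and the rise of POLE2 was lost without Dox500 replicate 2 or 3 or Dox750 replicate 1, 3 or 4 (0.27 to 0.30, adjusted p = 0.0514 to 0.0744).
In Dox1000 against Dox750 PRIM1 (0.27) and TYMS (0.21) rose, and MYBL2 (-0.55), GINS4 (-0.30), MCM5 (-0.26) and CDC45 (-0.21) fell. PRIM1 was lost without Dox750 replicate 1, 2 or 4 or Dox1000 replicate 1 or 3 (0.21 to 0.27, adjusted p = 0.0518 to 0.109), and TYMS was lost without Dox750 replicate 1, 2 or 3 or Dox1000 replicate 1 or 4 (0.16 to 0.22, adjusted p = 0.0508 to 0.124). MYBL2 was lost without Dox1000 replicate 3 (-0.43, adjusted p = 0.0567), and GINS4 was lost without Dox750 replicate 1, 2, 3 or 4 or Dox1000 replicate 1 or 2 (-0.31 to -0.26, adjusted p = 0.0543 to 0.0958). MCM5 was lost without Dox750 replicate 4 or Dox1000 replicate 2 (-0.23 to -0.22, adjusted p = 0.0505 to 0.051), and CDC45 was lost without Dox750 replicate 1, 2 or 4 or Dox1000 replicate 1, 2 or 4 (-0.21 to -0.19, adjusted p = 0.0656 to 0.0973).

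PRIM1, POLE and RFC5 lie on chromosome 12, and all 3 rose in Dox1000, where the median difference of the 529 other genes of that chromosome was 0.44. Each of the 3 stood between 0.27 and 0.63, with POLE and RFC5 below the median of their chromosome in that line. In Dox100, Dox250 and Dox500 POLE was above it (0.71, 0.53 and 0.57, against medians of 0.42, 0.44 and 0.44). PCNA, E2F1 and MYBL2 lie on chromosome 20, where the median of the 281 other genes was 0.42, and 0 of the 3 passed in Dox1000, with differences from -0.23 to 0.05. In Dox100, where E2F1 (0.74) and MYBL2 (0.66) rose, the median of the other genes of chromosome 20 was 0.47. MCM7, POLD2, RFC2 and RPA3 lie on chromosome 7, where the median of 467 other genes was -0.25, and 0 rose and 2 fell. The other 32 genes had 3 higher and 19 lower, with a median of -0.29 against -0.04 for the 8210 other genes of their chromosomes. The part of the shared chromosome in these values was not tested, and GINS3, the highest of the 42 in Dox1000, lies on chromosome 16, on which CDT1, GINS2 and ORC6 also lie and differed by 0.28, -0.09 and -0.26.

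**Figure D5:**
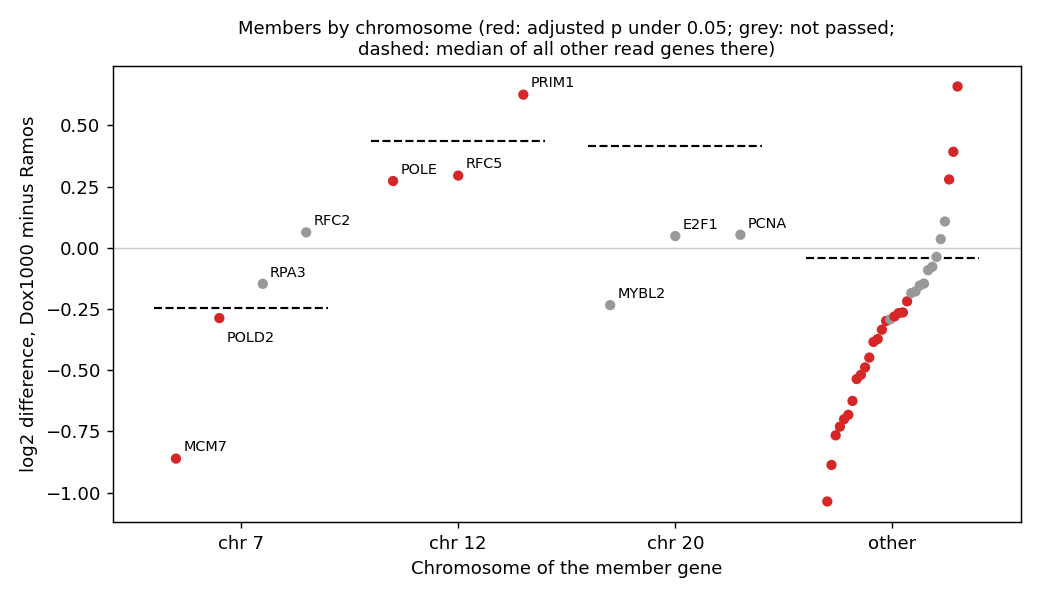
Log2 difference of each of the 42 genes in Dox1000 against Ramos (points, red at adjusted p under 0.05, grey otherwise) on chromosomes 7, 12, 20 and all others, with the median of the other genes there as a dashed line. The 3 genes of chromosome 12 are the only group with every point red and above 0.

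Other genes of the pathway, on lists chosen by role, also fell more often than they rose in Dox1000 against Ramos. Over all genes 27.6% rose and 29.7% fell there, and no list here or below was tested against these shares. These counts are with quantile normalization alone, and the background under median scaling is given above. Of 14 licensing and firing partners 1 rose and 6 fell (median -0.31), with the MCM-binding protein MCMBP at -1.09 ± 0.13, the origin recognition subunit ORC5 at -0.71 ± 0.07 and the helicase RECQL4 at -0.66 ± 0.14. Of 7 small polymerase subunits and primer removal genes 1 rose and 6 fell (median -0.39), among them RNASEH2B (-0.62 ± 0.15), RNASEH2C (-0.50 ± 0.11) of RNase H2, and the epsilon subunit POLE3 (-0.51 ± 0.07).
Of 8 genes of chromatin assembly and maintenance methylation 0 rose and 7 fell (median -0.39). They included the histone chaperones NASP (-0.54 ± 0.09) and CHAF1A (-0.47 ± 0.11) and UHRF1, which guides maintenance methylation (-0.48 ± 0.08). Of 4 other nucleotide enzymes 0 rose and 2 fell (median -0.08), RRM2B at -0.34 ± 0.12 and DUT at -0.23 ± 0.07. The highest adjusted p among the genes named in these 4 lists was 0.0251, for RRM2B.

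The 21 E2F family, pocket protein and G1 genes split, with 6 higher and 8 lower in Dox1000 (median 0.01), and 4 and 10 with median scaling (median -0.13). With quantile normalization 27.6% of all genes were higher and 29.7% lower, and the background under median scaling is given above. CDKN1B, which encodes the CDK inhibitor p27, rose in all 5 lines, by 1.68, 1.26, 1.09, 1.67 and 2.42 (SE 0.10). CDKN1A, the inhibitor p21, was not detected on any Ramos array. It was higher by at least 3.49-fold in Dox100 and by at least 1.67-fold in Dox1000 (adjusted p = 1.85e-08 and 0.0002).
TFDP2, an E2F dimer partner, differed by -1.57, -1.50, -1.80, -1.46 and -1.85 in order of dose (SE 0.16), with 2 of 4 Dox500 arrays detecting it. CDK6, a G1 kinase, differed by -0.46, -1.19, -1.49, -1.14 and -0.96 (SE 0.08).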

How the data were processed

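Expression was measured on 24 Illumina bead arrays, 4 for each of 6 lines. The deposited table gives a linear bead intensity and a detection p-value per probe and array, not yet normalised, as the values show. The deposited values per array are log2 signals, and they equalled the log2 of the quantile-normalised intensity with no background subtraction (largest difference 5.0e-09), on 24 of 24 arrays. Per the submitters' processing notes lumi took part, in a step not named. Genome build, scan batch and scanner software were not given in the sources used here. Intensity was background-corrected from the detection p-values (normexp, offset 16), quantile-normalised and put on the log2 scale with limma 3.58.1 in R 4.3.3. Probes detected (p under 0.01) on at least 3 of 4 arrays of a line were kept, 15765 of 47323 (33.3%), and none was dropped for saturation. The platform annotation gave 1 gene symbol for 30113 probes, several for 8 and none for 17202. Symbols were updated through Entrez identifiers in RefSeq (GRCh38.p14), and each of 9533 genes was read from its brightest kept probe, with 2450 having more than 1.
One limma model with a mean per line was fitted over the 24 arrays (18 residual and 3.99 prior degrees of freedom), and p-values were adjusted over all kept probes by Benjamini and Hochberg. It was tested on simulated data. The 10 comparisons were each resistant line against Ramos, each line against the one before it, and Dox1000 against Dox100. The 45 genes, the other gene lists and the tests were chosen with earlier results of these data known. Values on every array are given for the 5 highest and 5 lowest differences per comparison with Ramos, and the 3 highest and 3 lowest between resistant lines, among genes that passed with all 4 arrays of each line apart, and for a few further genes chosen after their values were seen. Of other replication genes at most 3 per list with the largest difference are named. For a gene not detected on any array of a line, a fold is a lower bound against the lowest signal among detected probes.
Same-numbered arrays of different lines did not deviate together (60 pairs, r from -0.24 to 0.18), so replicate numbers were not used as a block. Alternatives changed the background correction, normalisation, detection filter, probe rule, thresholds, variance prior, block and arrays used, and left out each array in turn.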

Additional observations from a re-analysis of the deposited data

Results flagged for a closer look

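In 7 of the 252 groups of 4 arrays of 1 gene in 1 line, a single array stood far from the other 3, which lay close together. Chance alone gives such a gap in about 1 in 20 groups. Values are log2 intensities. MCM5 was 10.688 on Dox750 replicate 1, below the others at 10.93 to 10.976. GINS3 was 9.477 on Dox250 replicate 4, below 9.7039 to 9.722. GINS4 was 8.0633 on Dox100 replicate 1, below 8.4383 to 8.4873, and 8.2928 on Dox250 replicate 4, below 8.5068 to 8.5413. PRIM1 was 10.331 on Dox250 replicate 2, below 10.47 to 10.494. POLE2 was 9.9731 on Dox100 replicate 2, above 9.6725 to 9.6967. RPA2 was 11.273 on Dox250 replicate 3, below 11.393 to 11.407. The calls of GINS3, GINS4, PRIM1 and MCM5 against Ramos in these lines passed with each of these arrays left out.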

How the results depend on the processing

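No result changed direction while called. Counts are of the 42 genes, higher or lower in the line named first, and medians are log2 differences. The deposited log2 values, which have no background correction, gave a Dox1000 median of -0.19 and 5 lower in Dox750 against Dox500, as did leaving out that correction. Median scaling gave 9 lower in Dox100, 4 higher and 19 lower in Dox250 (median -0.22), 3 higher in Dox500 (median -0.28), a median of -0.29 in Dox750, and 2 higher in Dox1000 (median -0.36). Between resistant lines it gave 0 higher and 9 lower in Dox250 against Dox100 (median -0.12), 0 and 1 in Dox750 against Dox500 (median -0.028), 0 higher in Dox1000 against Dox750 (median -0.13) and 1 higher in Dox1000 against Dox100 (median -0.26).
With no detection filter, where all probes were tested, 11 were lower in Dox500 (median -0.12), the Dox1000 median was -0.22, and the counts were 0 and 2 in Dox250 against Dox100, 0 and 1 in Dox500 against Dox250, 0 and 1 in Dox750 against Dox500 (median -0.052) and 0 higher in Dox1000 against Dox750, with a median of -0.10 in Dox1000 against Dox100. That last median was -0.12 over probes detected on all 24 arrays and, in an alternative chosen after seeing the data, without the gene undetected on some array. The mean over probes gave medians of -0.083 in Dox250, -0.12 in Dox500 and -0.15 in Dox1000 against Dox100.
At adjusted p under 0.01, limma called 8 lower in Dox100, 4 higher in Dox250, 11 lower in Dox500 and 3 higher in Dox1000. Between resistant lines it called 0 and 2 in Dox250 against Dox100, 0 and 1 in Dox500 against Dox250, 0 and 0 in Dox750 against Dox500, 0 and 3 in Dox1000 against Dox750, and 2 higher in Dox1000 against Dox100. With a 2-fold floor limma called 0 in each comparison but Dox1000 against Ramos, where 1 (POLD1) was lower. An intensity trend gave 2 higher and 5 lower in Dox750 against Dox500. The replicate block gave 1 higher in Dox250 against Dox100 and moved no other count by over 1.5 times, and 7 of 24 arrays correlated best with their own number. A fit on only the 8 arrays compared gave 0 and 2 in Dox250 against Dox100, 2 lower in Dox500 against Dox250, 1 lower in Dox750 against Dox500, 0 higher in Dox1000 against Dox750 and 2 higher in Dox1000 against Dox100.
Without the genes on chromosomes 7, 12 and 20, which leaves 32, 2 were higher in Dox100, 4 in Dox250, 3 in Dox750 and 3 in Dox1000, with medians of -0.13 in Dox250, -0.18 in Dox500 and -0.29 in Dox1000. The counts were then 1 and 2 in Dox250 against Dox100, 1 higher in Dox1000 against Dox750 and 2 higher in Dox1000 against Dox100, and the Dox750 against Dox500 median was -0.090.
Counts over all 5 lines were recomputed after seeing the data. They were 1 higher with median scaling, 4 lower and 2 higher with no detection filter, and 4 lower and 1 higher at adjusted p under 0.01. With each array left out they ran from 4 to 8 lower and from 2 to 4 higher.
With each array left out, counts against Ramos ran from 5 to 7 higher and 9 to 13 lower in Dox100 (median -0.11 to -0.06), 4 to 6 and 9 to 13 in Dox250 (-0.13 to -0.081), 6 to 8 and 13 to 17 in Dox500 (-0.16 to -0.13), 6 to 7 and 15 to 20 in Dox750 (-0.19 to -0.15), and 4 to 6 and 19 to 22 in Dox1000 (-0.26 to -0.20). Between resistant lines they ran from 0 to 2 and 2 to 5 in Dox250 against Dox100 (-0.032 to 0.016), 0 to 2 and 1 to 3 in Dox500 against Dox250 (-0.03 to -0.01), 0 to 1 and 0 to 2 in Dox750 against Dox500 (-0.070 to -0.048), 0 to 2 and 4 to 7 in Dox1000 against Dox750 (-0.11 to -0.07), and 2 to 4 and 14 to 17 in Dox1000 against Dox100 (-0.17 to -0.092). The cause of these changes was not tested. The 4 split cultures per line and signals near background, as for CDC6, limit what small differences can show.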

Other observations

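Of 25 mitotic genes measured for comparison 5, 4, 4, 6 and 9 rose and 3, 6, 4, 4 and 2 fell against Ramos, in order of dose. The background over all genes was 24.1%, 23.9%, 25.2%, 26.8% and 27.6% higher and 22.2%, 25.5%, 23.2%, 25.9% and 29.7% lower. Their median difference in Dox1000 was 0.13. With median scaling 5 rose and 5 fell in Dox1000 (background 19.9% and 37.5%), and the median was -0.02. CDK1, the kinase of mitotic entry, averaged 11.58 ± 0.12 in Dox1000 and 10.83 ± 0.19 in Ramos (SD, n = 4 each), a log2 difference of 0.74 ± 0.10. AURKA, a spindle pole kinase, differed by 0.61 ± 0.06 and NDC80, a kinetochore protein gene, by 0.53 ± 0.11. BUB1, a spindle checkpoint kinase, fell by 0.56 in Dox250, 0.68 in Dox500 and 0.55 in Dox750. The difference between the mitotic and the replication genes was not tested.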
